A study of Mus musculus with 6 samples.

Results

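The annexin genes were examined in bulk liver RNA-seq of mice with diet-induced MASH (metabolic dysfunction–associated steatohepatitis). The members were the 10 rows of the gene table named *Anxa1*, *Anxa2*, *Anxa3*, *Anxa4*, *Anxa5*, *Anxa6*, *Anxa7*, *Anxa10*, *Anxa11* and *Anxa13*, of 25403 rows in all, and each symbol had a single row. They were chosen by name to set *Anxa2*, which the study counts among the genes of disease-associated hepatocytes (daHep), beside its relatives. The question was which annexins differed between the genotype labels together with *Anxa2* and which did not. The table also listed *Anxa8*, *Anxa9* and *Anxa11os*, which were not members and are given only for accounting.

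Liver RNA came from 3 mice labelled wild-type C57BL6/J (WT) and 3 labelled *Themis*-KO, in which the gene was inactivated in the whole body, immune cells included. Every mouse received the MASH diet, which is rich in fat, fructose and cholesterol, for 3 months from 10-12 weeks of age, so there was no group on normal chow. The labels gave no sex for these livers. The study describes the mice of its WT and *Themis*-KO comparison on this diet as male. Its methods say that expression work drew on both sexes and metabolic work on males. The libraries held between 20679642 and 25649767 counts, and each annexin is given as CPM, a library's counts scaled to a common total, after TMM scaling, which also corrects for the composition of the libraries. *Themis* itself did not separate the labels, at 8.07, 25.6 and 12.0 CPM in the livers labelled WT and 8.63, 7.74 and 9.97 CPM in those labelled *Themis*-KO (exact two-sided permutation p = 0.3). Groups are therefore named by their labels throughout. One further feature split the livers: *Gm28438* held 96.6% and 96.8% of the summed CPM of *Gm28438* and the mitochondrial gene *mt-Nd3* in WT livers 1 and 2, and between 2.20% and 3.26% in the other 4 livers.

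Annexins are cytosolic proteins that bind acidic phospholipids when calcium rises, and so move to the plasma membrane, endosomes or secretory vesicles. They share a folded core that carries the calcium sites and differ in their N-terminal tails, to which partners such as small EF-hand proteins of the S100 family bind. They are known for sealing torn plasma membranes, for organizing membrane traffic and the actin cortex, and, outside the cell, for binding exposed phosphatidylserine and assembling plasminogen activation. In the liver they are made by hepatocytes, bile duct cells, macrophages, stellate cells and endothelium in different mixtures.

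The test was passed by 3 members, each higher in the livers labelled *Themis*-KO. These were *Anxa2*, which forms a complex with S100A10 at the inner face of the plasma membrane, *Anxa5*, which binds phosphatidylserine, and *Anxa3*, a less studied relative. Their fold changes were 3.00, 2.06 and 1.85. Of the 9 members with enough counts to be tested, 3 were called, all of them higher, against 9.11% of the 14496 tested genes called at an adjusted p below 0.05 (4.97% higher and 4.14% lower). The study had already reported *Anxa2* as higher in its *Themis*-KO livers, by qPCR, immunoblot and staining of hepatocytes, so that call is not independent evidence. An unadjusted p below 0.05 was reached by 6 members and by 30.7% of tested genes, and 8 members had a log2 fold change above 0, as had 51% of tested genes. Over the 9 tested members the median of the log2 fold changes was 0.50, and over all tested genes it was 0.0095. Adjusted p-values here and below were computed by edgeR with quasi-likelihood F tests and adjusted by Benjamini-Hochberg over all tested genes.

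The promoters of *Anxa2* and *Anxa5*, the most changed members for which RefSeq gave a promoter entry, are shown here because these genes were higher together in the same livers. Each run reads 5′ to 3′ on the gene's own strand, in GRCm38.p6, and stops before the first transcribed base. Capitals mark matches to the AP-1 motif, TGANTCA, which was picked for display after the matches of 9 searched motifs had been seen.
*Anxa2*, forward strand, chr9:69453433-69453619: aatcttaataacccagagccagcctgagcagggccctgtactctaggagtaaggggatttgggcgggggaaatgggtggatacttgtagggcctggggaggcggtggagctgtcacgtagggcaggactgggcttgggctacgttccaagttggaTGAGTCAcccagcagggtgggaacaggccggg
*Anxa5*, reverse strand, chr3:36475895-36476137: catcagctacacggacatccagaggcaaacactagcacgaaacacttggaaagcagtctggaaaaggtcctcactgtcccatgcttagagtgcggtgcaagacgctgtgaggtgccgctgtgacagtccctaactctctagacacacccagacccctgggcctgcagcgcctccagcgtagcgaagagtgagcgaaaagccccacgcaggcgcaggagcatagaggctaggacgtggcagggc
The *Anxa2* stretch held 1 match and the *Anxa5* stretch 0. Over the 250 bases before the RefSeq start and on both strands, AP-1 matched in 2 of the 7 members with an entry, *Anxa2* and *Anxa10*, and in 6.749% of 32851 promoters. The GC box GGGCGG matched in 3 members, *Anxa2*, *Anxa7* and *Anxa11*, and in 32.742% of promoters. The TATA box TATAAA matched in 3, *Anxa1*, *Anxa2* and *Anxa10*, and in 12.368% of promoters. The *Anxa2* match, 17 to 12 bases before the RefSeq start, lies past the printed stretch and within the annotated gene. The same holds for the *Anxa2* GC box matches 48 to 43 and 24 to 19 bases before that start. The E-box CAGGTG matched in 2, *Anxa7* and *Anxa11* (17.22% of promoters), and the TEAD motif GGAATG in 1, *Anxa1* (12.642%). CRE (TGACGTCA) and the longer consensus motifs of NF-kB, p53 and the glucocorticoid receptor matched in 0 members and in 1.546%, 0.085%, 0.432% and 0.387% of promoters. A match describes letters in a window and does not show that a factor binds there.

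*Anxa2* occupies chromosome 9, forward strand, 69453620 to 69491795 (GRCm38). Its CPM was 56.1, 70.3 and 82.7 in the livers labelled WT and 237, 243 and 148 in those labelled *Themis*-KO. The groups did not overlap, and *Themis*-KO liver 3 was the lowest of its label while WT liver 3 was the highest of its own. The log2 fold change of 1.58 had a 95% confidence interval from 1.08 to 2.09 (SE 0.22, edgeR adjusted p = 0.0131). Set only against WT liver 3, which shared the low *Gm28438* share, all 3 livers labelled *Themis*-KO were still higher. A fit by edgeR with that split as a covariate gave a log2 fold change of 1.34 and an adjusted p of 0.317. No liver labelled *Themis*-KO had the high share, so split and label are largely confounded. The label term of that fit rests on those 3 livers against WT liver 3 alone.

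*Anxa5*, best known as the reagent that stains dying cells by their exposed phosphatidylserine, occupies chromosome 3, reverse strand, 36448923 to 36475894. Its CPM was 180, 221 and 261 in the livers labelled WT and 428, 587 and 348 in those labelled *Themis*-KO. These groups did not overlap either, and the same 2 livers, *Themis*-KO 3 and WT 3, stood nearest to the other label. Its log2 fold change was 1.04 (SE 0.21, 95% confidence interval 0.56 to 1.53, edgeR adjusted p = 0.0318).

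*Anxa3* occupies chromosome 5, forward strand, 96793339 to 96845966. Its CPM was 6.28, 8.11 and 8.72 in the livers labelled WT and 14.9, 15.5 and 12.3 in those labelled *Themis*-KO. The order of the livers was again that of *Anxa2*, with *Themis*-KO 3 lowest and WT 3 highest within their labels. Its log2 fold change was 0.89 (SE 0.16, 95% confidence interval 0.52 to 1.25, edgeR adjusted p = 0.0255). For *Anxa2*, *Anxa5* and *Anxa3* alike, the adjusted p stayed under 0.05 without WT liver 3 or without *Themis*-KO liver 3, and was over 0.05 when any one of the other 4 livers was left out.

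**Figure D1:**
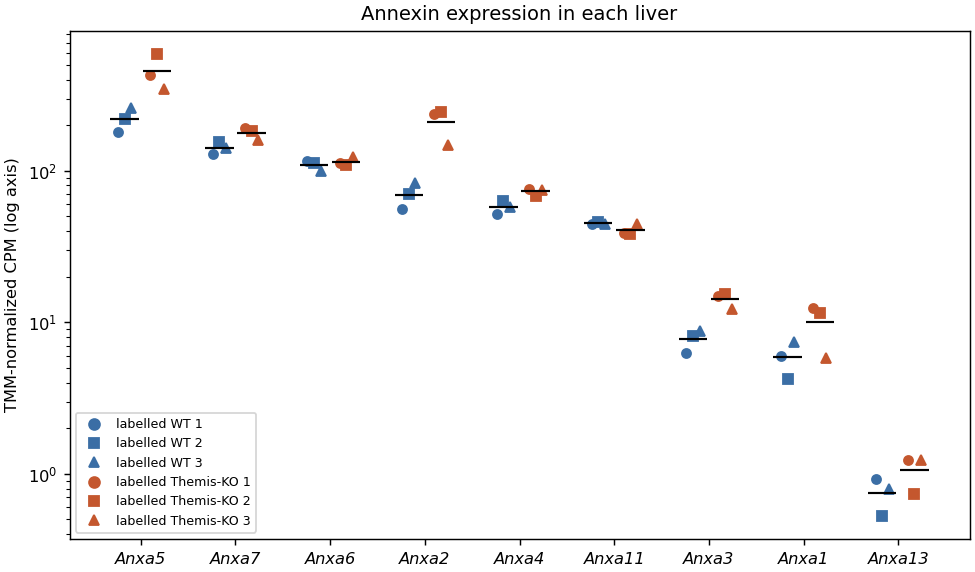
TMM-normalized CPM (log axis) of the 9 tested annexins in each liver, ordered by the mean of the livers labelled WT; symbols mark the replicate number, colours the label, and black bars the mean of 3 livers. *Anxa2*, *Anxa5*, *Anxa3*, *Anxa4* and *Anxa7* separate without overlap, while *Anxa6*, *Anxa11*, *Anxa1* and *Anxa13* overlap between the labels. *Anxa10*, with at most 3 counts in a liver, is not drawn.

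*Anxa4* and *Anxa7* also separated the labels, with smaller differences that did not pass the threshold. *Anxa4*, which lines the apical membrane of secretory epithelia and is strong in bile ducts (chromosome 6, reverse strand, 86736840 to 86793584), had 51.9, 63.0 and 57.3 CPM in the livers labelled WT and 76.0, 68.6 and 75.0 CPM in those labelled *Themis*-KO. Its log2 fold change was 0.35 (SE 0.096, edgeR adjusted p = 0.0594), and DESeq2 gave an adjusted p of 0.0375. *Anxa7*, which binds sorcin and acts in vesicle fusion (chromosome 14, reverse strand, 20455260 to 20480133), had 129, 155 and 142 CPM against 192, 183 and 160 CPM. Its log2 fold change was 0.33 (SE 0.11, edgeR adjusted p = 0.0867). With *Anxa2*, *Anxa3* and *Anxa5*, these made 5 of 9 tested members whose livers labelled *Themis*-KO all lay above those labelled WT, where 17.7% of all tested genes did so.

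*Anxa1*, whose protein quietens neutrophil recruitment through formyl peptide receptors (chromosome 19, reverse strand, 20373428 to 20390944), spread widely within the labels. It had 6.01, 4.22 and 7.42 CPM in the livers labelled WT and 12.5, 11.6 and 5.86 CPM in those labelled *Themis*-KO. *Themis*-KO livers 1 and 2 were above every liver labelled WT, and *Themis*-KO liver 3 fell among them. The log2 fold change was 0.76 with a 95% confidence interval from 0.04 to 1.48 (SE 0.31, edgeR adjusted p = 0.146), and without *Themis*-KO liver 3 the adjusted p was 0.0138. The interval comes from the unadjusted test and so is narrower than the adjusted p would give.

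*Anxa6* and *Anxa11* were abundant members with the smallest differences. *Anxa6*, which links endosomes to cholesterol and actin (chromosome 11, reverse strand, 54979108 to 55033445), had 115, 113 and 99.5 CPM in the livers labelled WT and 112, 109 and 123 CPM in those labelled *Themis*-KO. Its log2 fold change of 0.07 had a 95% confidence interval from -0.14 to 0.28 (edgeR adjusted p = 0.636), which does not hold a change of the size of *Anxa2*. *Anxa11*, whose long tail tethers RNA granules to lysosomes (chromosome 14, forward strand, 25842156 to 25886804), had 44.2, 46.2 and 44.4 CPM against 38.8, 38.1 and 44.5 CPM. It was the only tested member with a log2 fold change below 0, at -0.15 (95% confidence interval -0.36 to 0.05, edgeR adjusted p = 0.282), and under scaling by total counts alone the value was -0.01. *Themis*-KO liver 3 lay within the WT range for *Anxa11*, and without it the value was -0.24 with an adjusted p of 0.0417.

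The remaining members were near the limit of detection. *Anxa13*, an epithelial annexin of gut and kidney (chromosome 15, reverse strand, 58341471 to 58389244), had 0.917, 0.528 and 0.789 CPM in the livers labelled WT and 1.23, 0.731 and 1.23 CPM in those labelled *Themis*-KO. The labels overlapped, with a log2 fold change of 0.50 and a 95% confidence interval from -0.27 to 1.28 (edgeR adjusted p = 0.337). *Anxa10*, an annexin of the stomach lining (chromosome 8, reverse strand, 62057042 to 62123150), had 3, 0 and 1 counts against 1, 2 and 0 counts, which is at or under the floor of 3 counts in every liver, and it was not tested. Of the rows that were not members, *Anxa8* had 0.872, 0.864 and 0.829 CPM against 0.340, 0.430 and 0.425 CPM, lower without overlap at a log2 fold change of -1.09 (edgeR adjusted p = 0.0535). *Anxa9* had a log2 fold change of 0.27 (edgeR adjusted p = 0.551), and *Anxa11os* had at most 3 counts.

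**Figure D2:**
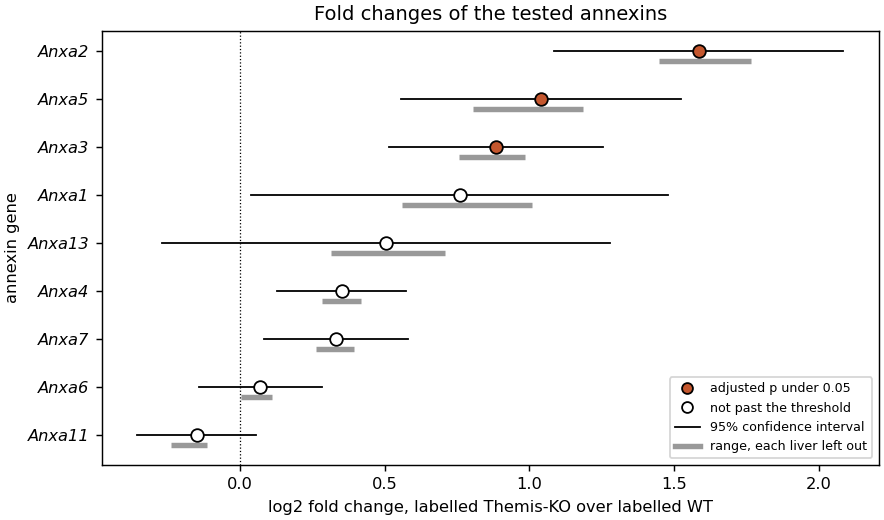
Log2 fold change of each tested annexin (livers labelled *Themis*-KO over livers labelled WT, 3 against 3), with its 95% confidence interval in black and the range over fits that leave out each liver in grey. Filled points (*Anxa2*, *Anxa5* and *Anxa3*) have an adjusted p under 0.05; the interval of *Anxa2* runs from 1.08 to 2.09 and that of *Anxa6* from -0.14 to 0.28.

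Levels of different annexins were set side by side as CPM per kilobase of the union of each gene's annotated exons. In the livers labelled WT, *Anxa5* stood first at 124 ± 22.8 CPM per kilobase (SD, n = 3), followed by *Anxa6* at 37.3 ± 2.92, *Anxa7* at 23.7 ± 2.17 and *Anxa2* at 18.7 ± 3.58. The ranges of *Anxa7* and *Anxa2* overlapped, as did those of *Anxa3* (2.12 ± 0.35) and *Anxa1* (2.02 ± 0.55) lower down. Between these pairs lay *Anxa4* at 12.4 ± 1.19 and *Anxa11* at 10.9 ± 0.26 CPM per kilobase. In the livers labelled *Themis*-KO, *Anxa5* was still first at 256 ± 68.6 CPM per kilobase, and *Anxa2* came next at 56.0 ± 14.3, although its range overlapped that of *Anxa6* at 39.2 ± 2.40. The rest kept the order *Anxa7*, *Anxa4*, *Anxa11*, *Anxa3*, *Anxa1*, *Anxa13* in both groups.

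Summed over the 10 members, annexin message was 204, 237 and 255 CPM per kilobase in the livers labelled WT and 410, 496 and 337 in those labelled *Themis*-KO. The labels did not overlap, and *Anxa5* made up most of the sum in each group, with a share of 53.3 ± 3.91% and 61.1 ± 4.74% (SD, n = 3 each). The share of *Anxa2* was 8.01 ± 0.65% in the livers labelled WT and 13.5 ± 1.88% in those labelled *Themis*-KO. Shares of the members that moved little were smaller where the sum was larger, at 16.3 ± 3.02% and 9.77 ± 2.48% for *Anxa6* and at 4.72 ± 0.53% and 2.45 ± 0.68% for *Anxa11*.

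*Anxa2* was set against its relatives through the log2 ratio of its CPM to that of each other tested member within a liver. All 8 ratios were higher in the livers labelled *Themis*-KO on average, which largely follows from *Anxa2* having the largest log2 fold change of the tested members. The ratios share *Anxa2* as numerator, so they are not separate results. Of the 8, 7 did not overlap between the labels, and no share over ratios of other genes was computed to set beside this count. The difference in log2 ratio was 1.72 against *Anxa11*, 1.50 against *Anxa6*, 1.24 against *Anxa7*, 1.21 against *Anxa4*, 0.85 against *Anxa1* and 0.68 against *Anxa3*. Against *Anxa5* it was 0.54, the smallest of the 8. The *Anxa2* to *Anxa5* log2 ratio was -1.68, -1.65 and -1.66 in the livers labelled WT, a close group, and -0.85, -1.27 and -1.23 in those labelled *Themis*-KO. The ratio to *Anxa13*, with a difference of 1.06, overlapped. Each of the 7 ratios without overlap had an exact two-sided permutation p of 0.1, the smallest that 3 livers against 3 can give, and 0.114 after Benjamini-Hochberg adjustment over the 8 ratios, so this exact test could not reach 0.05 with 6 livers.

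**Figure D3:**
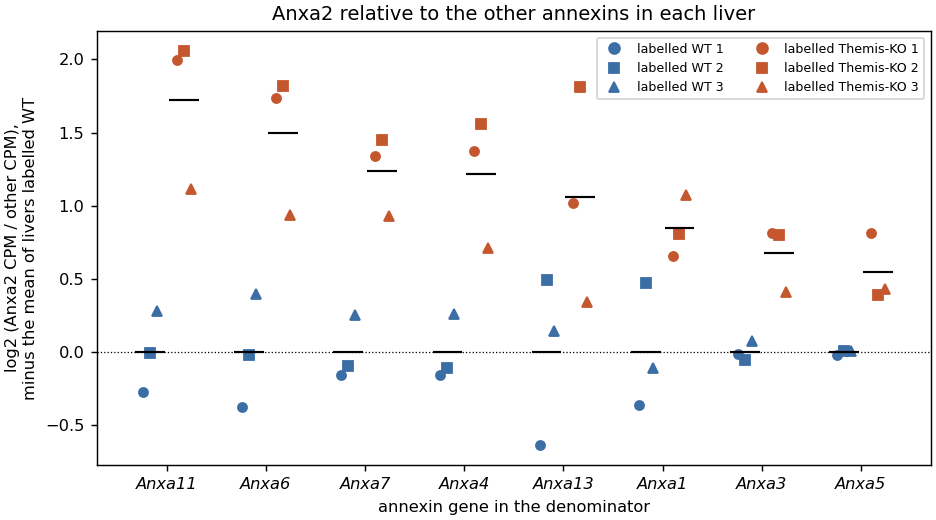
Log2 ratio of *Anxa2* CPM to the CPM of each other tested annexin in each liver, after subtracting the mean of the livers labelled WT; black bars are means of 3 livers. Every mean of the livers labelled *Themis*-KO lies above 0, from 0.54 with *Anxa5* to 1.72 with *Anxa11*, and the ratio to *Anxa13* overlaps between the labels.

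EF-hand proteins that bind annexin tails, and the receptors of *Anxa1*, formed the first list of partners. Of 9 tested genes, 4 rose and 0 fell, where 4.97% of all tested genes were called higher and 4.14% lower, and the median log2 fold change of the list was 0.91. *S100a10*, the partner of annexin A2, had 132, 134 and 171 CPM in the livers labelled WT and 303, 309 and 209 CPM in those labelled *Themis*-KO. As for *Anxa2*, the labels did not overlap and *Themis*-KO liver 3 was the lowest of its group. The log2 fold change of *S100a10* was 0.91 (SE 0.17, edgeR adjusted p = 0.0294). *S100a11*, whose protein binds annexins A1 and A2, had 11.1, 16.3 and 20.8 CPM against 51.9, 56.6 and 43.3 CPM, a log2 fold change of 1.65 (SE 0.22, edgeR adjusted p = 0.0123). *S100a6*, whose protein binds annexin A11 among others, rose from 1.97, 1.78 and 2.13 CPM to 6.29, 5.20 and 2.98 CPM, with a 95% confidence interval from 0.64 to 1.96 on the log2 scale (edgeR adjusted p = 0.0384). *S100a4*, an S100 protein of motile cells, had a log2 fold change of 1.57 (edgeR adjusted p = 0.0459) at no more than 3.14 CPM.

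The other members of that list did not pass the test. *Ahnak*, a giant scaffold that the complex of annexin A2 and S100A10 recruits to the membrane, had 30.5, 26.7 and 29.8 CPM in the livers labelled WT and 85.4, 75.5 and 32.4 CPM in those labelled *Themis*-KO. *Themis*-KO liver 3 lay just above the WT livers, and the adjusted p was 0.0578 from edgeR. *Sri* (sorcin, a partner of annexin A7) and *Pdcd6* (a partner of annexins A7 and A11) had log2 fold changes of -0.04 and -0.23. The formyl peptide receptor genes *Fpr1* and *Fpr2* had log2 fold changes of 0.23 and 0.55, with edgeR adjusted p = 0.723 and 0.278, and the table had no row named *Fpr3*.

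**Figure D4:**
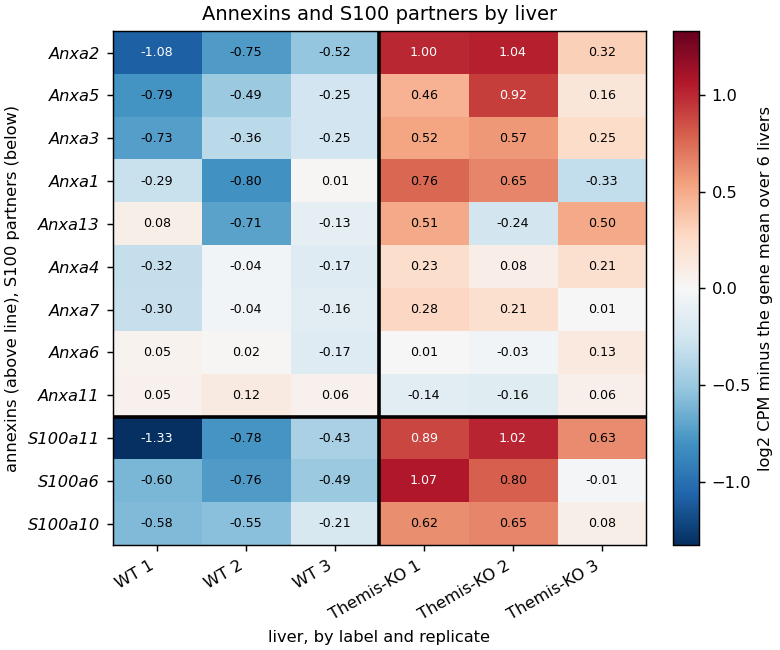
Log2 CPM of the 9 tested annexins (above the line) and 3 S100 partners (below) in each liver, minus each gene's mean over the 6 livers; red is above and blue below that mean. *Anxa2* runs from -1.08 in WT liver 1 to 1.04 in *Themis*-KO liver 2, *S100a11* from -1.33 to 1.02 in the same livers, and *Themis*-KO liver 3 is paler than *Themis*-KO livers 1 and 2 in the rows of *Anxa2*, *Anxa5* and *Anxa3* and of the S100 partners.

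Genes of plasminogen activation, which the surface complex of annexin A2 and S100A10 assists, went in both directions. Of 7 tested genes, 1 rose and 1 fell, against 4.97% and 4.14% of all tested genes, with a median log2 fold change of -0.11. *Plat*, the tissue-type activator that binds this complex, had 1.74, 0.912 and 2.84 CPM in the livers labelled WT and 8.33, 6.92 and 3.68 CPM in those labelled *Themis*-KO. All livers labelled *Themis*-KO were higher, and the log2 fold change was 1.77 (SE 0.42, edgeR adjusted p = 0.0432). *Serpine2*, an inhibitor of serine proteases that include the activators, had 18.9, 9.84 and 14.4 CPM against 7.35, 6.54 and 5.90 CPM, a log2 fold change of -1.12 (SE 0.23, edgeR adjusted p = 0.0342). *Plg*, plasminogen itself and a hepatocyte product, had 1572, 1291 and 1121 CPM against 969, 932 and 883 CPM, without overlap but with an adjusted p of 0.0516 from edgeR. *Plaur*, the urokinase receptor, had a log2 fold change of 1.96, but its labels overlapped at *Themis*-KO liver 3 and the edgeR adjusted p was 0.0769. *Plau*, *Serpinf2* and *Plgrkt* had log2 fold changes of 0.77, -0.49 and -0.11 and did not pass.

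Of 13 tested genes of plasma membrane repair, 3 rose and 0 fell, against 4.97% and 4.14% of all tested genes, with a median log2 fold change of 0.28. *Myof*, a ferlin that fuses vesicles to damaged membrane, had 6.61, 6.29 and 10.5 CPM in the livers labelled WT and 19.9, 19.2 and 12.6 CPM in those labelled *Themis*-KO. Its log2 fold change was 1.14 (SE 0.25, edgeR adjusted p = 0.0369), and its labels did not overlap. *Ehd2*, an ATPase at the neck of caveolae, had 6.93, 5.81 and 6.63 CPM against 12.9, 11.4 and 9.82 CPM, a log2 fold change of 0.82 (edgeR adjusted p = 0.0255). *Capn2*, a calcium-activated protease, had a log2 fold change of 0.57 (edgeR adjusted p = 0.0356). The related ferlin *Dysf* had a log2 fold change of 0.61 with an adjusted p of 0.0526 from edgeR. The ESCRT genes *Pdcd6ip*, *Chmp4b*, *Vps4a* and *Vps4b* lay between -0.02 and 0.33, and *Capn1*, *Capns1*, *Cavin1*, *Cav1* and *Trim72* between -0.54 and 0.64, without passing the test.

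**Figure D5:**
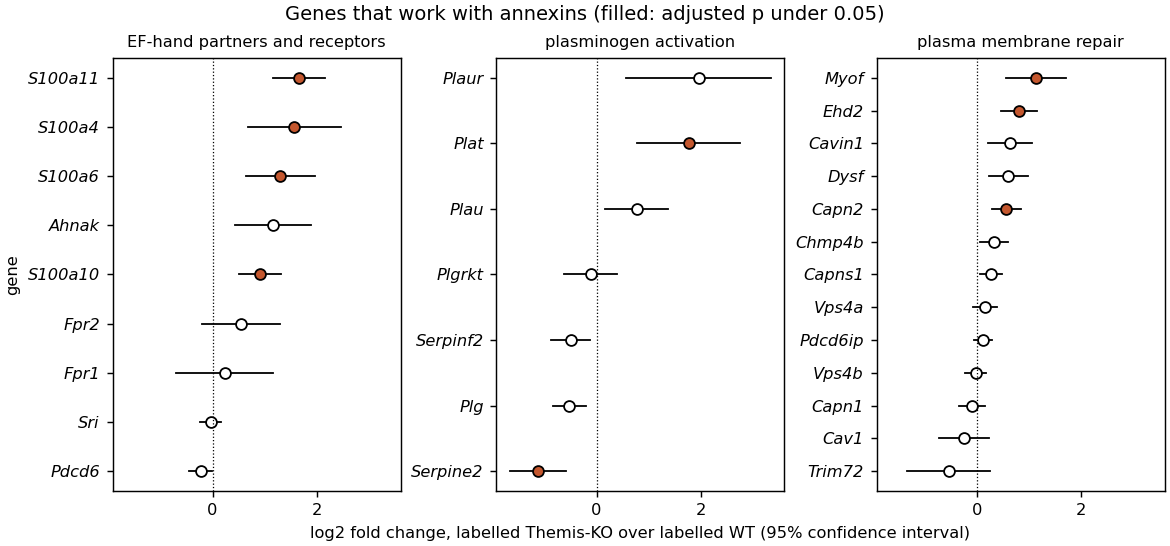
Log2 fold change (livers labelled *Themis*-KO over livers labelled WT) with 95% confidence interval for the tested genes of 3 lists that work with annexins; filled points have an adjusted p under 0.05. Filled points number 4 of 9 for EF-hand partners and receptors, 2 of 7 for plasminogen activation, where *Plat* is higher and *Serpine2* lower, and 3 of 13 for plasma membrane repair.

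Across all tested genes, the ones nearest to *Anxa2* in their course over the 6 livers were sought by the root mean square difference of log2 CPM after centring each gene, among 14495 genes. The 5 nearest genes that were not annexins were *Nid1*, a basement membrane glycoprotein, *Slc25a24*, a mitochondrial nucleotide carrier regulated by calcium, *Sh3pxd2b*, a podosome scaffold, *Cd300lb*, a receptor of myeloid cells, and *Nabp1*, which binds single-stranded DNA. Their differences from *Anxa2* ran from 0.0882 to 0.153 log2 units. *S100a11* ranked 10, *S100a6* 69 and *S100a10* 247. Among annexins *Anxa5* was nearest at rank 134, with a difference of 0.30 log2 units, then *Anxa3* at 294 and *Anxa1* at 1005, and *Anxa11* was farthest at 9780. These ranks describe 6 livers that share the label contrast and carry no test.

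Of the other daHep genes that the study names, 6 were tested and 5 rose, where 4.97% of all tested genes were called higher. They were chosen by the study, which also described some of them in these livers, so their direction is not independent evidence. *Sox4* and *Klf6*, transcription factors of injured epithelium, had log2 fold changes of 1.34 and 1.94 (edgeR adjusted p = 0.0351 and 0.0304), and *Jun*, a subunit of AP-1, of 1.00 (edgeR adjusted p = 0.0399). *Klf6* had 23.4, 22.2 and 33.3 CPM in the livers labelled WT and 156, 98.2 and 49.6 CPM in those labelled *Themis*-KO, and here too *Themis*-KO liver 3 was the lowest of its label. *Nrg1* and *Cdkn1a* also rose, and *Gdf15* overlapped between the labels with an adjusted p of 0.130 from edgeR.

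Since annexins are made by many cells, markers of liver cell types were read beside them, and in bulk RNA fewer cells of a type and less RNA per cell cannot be told apart. The 10 hepatocyte markers summed to 63887 to 66546 CPM in the livers labelled WT and 48958 to 55379 CPM in those labelled *Themis*-KO, with 1 of 10 called lower (*Cyp2e1*). The 8 stellate cell markers summed to 337 to 386 CPM and 476 to 481 CPM, and 4 of 8 rose. The 8 macrophage markers summed to 264 to 465 CPM and 441 to 548 CPM, with 2 of 8 called higher. Bile duct markers ran from 27.9 to 32.7 CPM and from 33.6 to 61.5 CPM with 0 of 7 tested genes called, and neutrophil markers from 6.62 to 10.8 CPM and from 9.02 to 24.9 CPM with 0 of 5 called. The 6 endothelial markers summed to 184 to 202 CPM and 206 to 227 CPM, and 1 of 6 rose. None of 3 tested T cell and 4 tested B cell markers was called. Over all tested genes, 4.97% were called higher and 4.14% lower. No marker was at 0 in all 6 livers. The hepatocyte, stellate cell, bile duct and endothelial sums separated the labels, but *Alb* made up most of the hepatocyte sum. Singly, 5 of 10 hepatocyte, 3 of 8 stellate cell, 4 of 7 bile duct and 4 of 6 endothelial markers overlapped between the labels. So did 4 of 8 macrophage and 4 of 5 tested neutrophil markers. The other 5 hepatocyte markers were all lower in the livers labelled *Themis*-KO. The share of all tested genes that were lower without overlap was not computed. In the other cell types named, the markers without overlap were all higher in the livers labelled *Themis*-KO, as were 17.7% of all tested genes. The study's own deconvolution of its bulk RNA-seq estimated larger proportions of cholangiocytes, macrophages and stellate cells in *Themis*-KO livers. The part of cell makeup in the annexin differences was not tested here.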

How the data were processed

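Poly(A) RNA of 6 livers was sequenced, 3 per label, and groups and replicate numbers were taken from the sample titles. The authors trimmed reads with cutadapt 2.3, mapped them to GRCm38 with STAR 2.7.8a and assigned them to genes with RSEM 1.3.3, per their processing notes, and deposited estimated counts per gene, which the table holds as whole numbers without normalization. The annotation release and the strand setting of the counting are not given in the sources used here. RSEM shares reads between overlapping genes: *Anxa2*, *Anxa3*, *Anxa4* and *Anxa11* each share exon bases with a listed or annotated transcript, none with over 9 counts in all livers. Coordinates and exon lengths come from GENCODE vM21 (GRCm38), which held 25321 of the 25403 listed IDs and in which *Anxa13* is a processed transcript with a reference genome error. Promoter sequences come from RefSeq (GRCm38.p6), with entries for 7 of 10 members and none for *Anxa3*, *Anxa6* and *Anxa13*.

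The main test used edgeR 4.0.16 under R 4.3.3 (filterByExpr, TMM, glmQLFit and glmQLFTest on 6 livers, no covariates). The filter removed 10907 genes and kept 14496, and the biological coefficient of variation was 0.157. The SE of a log2 fold change is its size over the root of the F statistic. CPM carry no prior count, except a prior count of 2 for the likeness ranks. DESeq2 1.42.0, on the same filtered genes, was an alternative, since the study used it. Scripts were tested on simulated data. No pair of livers of 1 label agreed within sampling noise (chi-square per degree of freedom at least 9.83). Nothing says whether libraries came from separate extractions, so p-values measure the spread between these samples. Named genes were every annexin row, the lists of EF-hand partners and receptors, plasminogen activation, plasma membrane repair and daHep genes, cell type markers, and the 5 genes nearest to *Anxa2*. One gene of these lists is not reported here and was left out of the list counts. The members and lists were chosen with earlier results of these data known.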

Additional observations from a re-analysis of the deposited data

How the results depend on the processing

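Each of the 9 tested annexins kept the sign of its log2 fold change under all 14 alternatives. The 3 calls (*Anxa2*, *Anxa5*, *Anxa3*) each had an adjusted p under 0.05 in 8 of 14. By edgeR, 3 annexins were called, and the count was 5 with scaling by total counts alone, which moved the median log2 fold change of all genes from 0.0095 to 0.147, and 0 with the *Gm28438* split as a covariate. In the covariate fit the label term rests on the livers labelled *Themis*-KO against WT liver 3 alone, because split and label are largely confounded. The number of annexins called ran from 0 to 6 with each liver left out, 0 without WT 1, WT 2, *Themis*-KO 1 or *Themis*-KO 2 and 6 without *Themis*-KO 3. With the replicate block it was 0, and the adjusted p was 0.0584 for *Anxa2*, 0.0869 for *Anxa5* and 0.0888 for *Anxa3*. Same-numbered livers showed no shared deviation (mean r -0.132, against 0.066 for other numbers), so the numbers were not taken to pair the livers. At an unadjusted p under 0.05, 6 members passed by edgeR.

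The 1321 genes called over the whole table became 2179 without the filter on low counts, 2369 by DESeq2, 62 with the replicate block, 3 with the *Gm28438* split as a covariate, 431 with a fold change of at least 2, and 20 (without *Themis*-KO 1) to 4267 (without *Themis*-KO 3) with each liver left out. Scaling by total counts alone gave 1449 higher and 387 lower in place of 721 and 600. The 9 calls over the 3 partner lists became 15 without the filter, 16 by DESeq2, 1 with the replicate block, 0 with the covariate, and 0 (without *Themis*-KO 1 or 2) to 17 (without *Themis*-KO 3) with each liver left out. Uncalled genes near 0 changed sign: under total count scaling *Sri* (0.10), *Plgrkt* (0.023), *Capn1* (0.043) and *Vps4b* (0.12), with the covariate *Sri* (0.024), *Fpr1* (-0.52), *Capn1* (0.031) and *Vps4b* (0.024), and with each liver left out *Sri* (-0.10 to 0.0062), *Fpr1* (-0.0134 to 0.87), *Plgrkt* (-0.34 to 0.07) and *Vps4b* (-0.064 to 0.038). The cause of these changes was not tested, and every value from the covariate fit carries the limit given above. Counting depth limits *Anxa10* and *Anxa13*.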
